A study of Mus musculus with 33 samples.

Results

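Transcription factors of effector and tissue Tregs, 8 in all, were followed through 33 bulk RNA-Seq libraries of mouse immune cells: Batf, Irf4, Prdm1, Maf, Id2, Id3, Pparg and Nfil3. They were chosen by name, and each of the 8 had 1 row among the 31054 features counted. There were 11 cell subsets with 3 libraries each. All mice were DEREG mice on a C57BL/6 background, which carry the diphtheria toxin receptor and EGFP under the Foxp3 promoter, so that Tregs could be sorted as CD4+GFP+ cells. Tolerant mice had received 4000 IEQ of porcine neonatal islet cell clusters under the renal capsule, 500 µg of MR-1 (an antibody against CD154) on each of days 0, 2, 4 and 6 and 500 µg of CTLA4-Fc on day 0, and their cells were collected at day 100. Naive mice had neither graft nor treatment. From tolerant mice came SP/CD127hi and SP/CD127-/lo Tregs of the spleen, DLN/CD127hi and DLN/CD127-/lo Tregs of the draining lymph node, graft Tregs, and, of the spleen, CD4+GFP- T cells and CD45+CD4- cells. Naive and graft Tregs were not split by CD127. Naive mice gave SP/naive and DLN/naive Tregs and the same Foxp3- subsets of the spleen. Per the study's methods, a library held cells pooled from 3 to 4 mice. There were 10 tolerant mice, all male and of 2 transplant experiments, but only 3 male naive mice for the spleen and 3 female naive mice for the lymph node. These are too few naive mice for 3 separate pools, and the labels tie no library to a mouse. The naive libraries may therefore share mice, and p-values and SDs with n = 3 measure only the spread between libraries, part of which may be technical. Sex and tolerance cannot be told apart in the DLN. In bulk libraries, fewer cells that use a gene and less RNA per cell cannot be told apart.

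These factors act at different steps of Treg maturation. BATF and IRF4 bind DNA together, downstream of the T cell receptor, and drive the effector program of Tregs. PRDM1 (Blimp-1) marks effector Tregs that make IL-10, and MAF serves IL-10 production and the Tregs of the gut. ID2 and ID3 lack a DNA-binding domain and hold off the E proteins, factors that bind E-boxes, of sequence CANNTG. PPARG is the factor of adipose tissue Tregs, and NFIL3, which also belongs to the circadian system, represses transcription in several lymphocytes.

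Values are CPM, that is, counts scaled to a common library total with TMM factors. Between 2550698 and 4615283 counts lay on genes in each of the 24 spleen and graft libraries, sequenced on a NextSeq 500, and between 844039 and 1935323 in each of the 9 DLN libraries, sequenced on a MiSeq. Tissue and sequencer therefore cannot be told apart for the DLN. A count of 0 is compatible with up to 3 counts, which stood for 0.637 to 1.18 CPM in the first set and 1.64 to 3.11 CPM in the second, for counting error only. Foxp3 had 166 to 672 CPM in the 21 Treg libraries and 0 to 8.20 CPM in the 12 Foxp3- libraries, without overlap. EGFP overlapped, with 1.64 to 149 CPM against 0 to 3.57 CPM, the lowest values lying in DLN Tregs. Il7r, which encodes CD127, averaged 1172 CPM in SP/CD127hi and 311 CPM in SP/CD127-/lo Tregs, but 596 CPM (476 to 678) and 522 CPM (265 to 784) in the 2 gates of the DLN, so that the CD127 sort was not visible in the RNA of the DLN. DEGs were genes with an adjusted p under 0.05 in edgeR's quasi-likelihood test over the 25347 genes tested. All 8 factors were tested, neither the likelihood ratio test nor DESeq2 called a factor that this test did not, and a fold change is log2 of the first group over the second ± SE.

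Per kilobase of exon, Id2 had the highest mean level in splenic and graft Tregs, 175 CPM per kb, followed by Id3 with 116 CPM per kb, Maf with 102 CPM per kb and Batf with 82.5 CPM per kb. This order was not that of each group: Id2 had 366 CPM per kb in graft Tregs, but 68.7 CPM per kb in SP/naive and 101 CPM per kb in SP/CD127-/lo Tregs, below the 151 and 164 CPM per kb of Id3, and in DLN Tregs Id3 had 134 and Id2 120 CPM per kb. Prdm1 (10.4 CPM per kb), Irf4 (5.44 CPM per kb) and Nfil3 (4.17 CPM per kb) were much lower, and Pparg had 0.374 CPM per kb. In the Foxp3- subsets Id2 had the highest mean of the 8 factors, 217 CPM per kb, while Maf had 18.3 CPM per kb and Batf 25.8 CPM per kb.

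**Figure D1:**
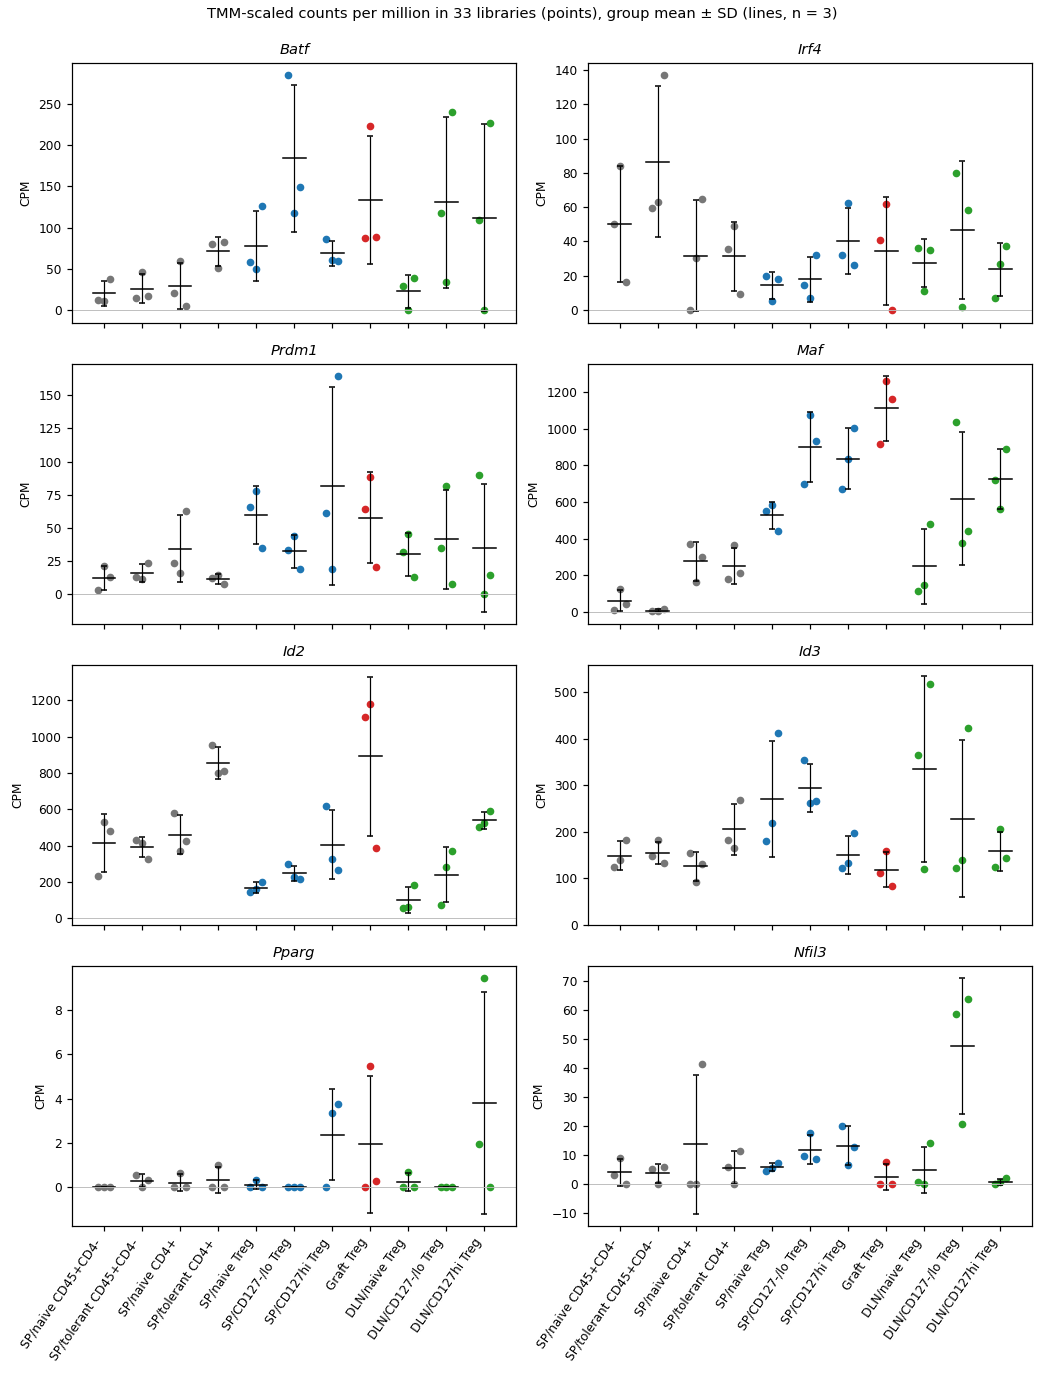
TMM-scaled CPM (linear axes) of the 8 factors in 33 libraries (points) of 11 subsets (x axis: grey, Foxp3- cells; blue, splenic Tregs; red, graft Tregs; green, DLN Tregs). Horizontal lines are means and error bars SD over 3 libraries; Maf is low in both CD45+CD4- groups, Id2 is high in 2 of the 3 graft libraries, and single libraries of Batf, Irf4 and Prdm1 reach 0.

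Id2 (ENSMUSG00000020644; GRCm38 chr12:25093799-25097140, minus strand) was the factor with the most changes between Treg subsets. A stretch of RefSeq upstream sequence of Id2 (GRCm38.p6, chr12:25096254-25096342, minus strand) that no GENCODE exon of the gene covers, and that lies inside the gene's annotated span, is given with its E-box, the site of the proteins that ID2 opposes, in capitals. The E-box was searched on both strands.
Id2: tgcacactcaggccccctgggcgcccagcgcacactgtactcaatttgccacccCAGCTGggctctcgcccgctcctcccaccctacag
A CANNTG was present in 33% of the 32851 RefSeq promoters over the first 89 bases of their windows, so that one in this stretch is common. Id3 had no such stretch outside exons, and the table used had no entry for Maf. Among the upstream stretches of the other factors, the AP-1 type letters TGANTCA, which BATF and JUN proteins read, were found for Prdm1 alone, beside E-boxes. Prdm1 is shown for that match, with both motifs in capitals (GRCm38.p6, chr10:44458749-44458998, minus strand). That stretch too lies before a RefSeq start and inside the gene's annotated span. TGANTCA was held by 6.75% and CANNTG by 66.2% of promoters over 250 bases.
Prdm1: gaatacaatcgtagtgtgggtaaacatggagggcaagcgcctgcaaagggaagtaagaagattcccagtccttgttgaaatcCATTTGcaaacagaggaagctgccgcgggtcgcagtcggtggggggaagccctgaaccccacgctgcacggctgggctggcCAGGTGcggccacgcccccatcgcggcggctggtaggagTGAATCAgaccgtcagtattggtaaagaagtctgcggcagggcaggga

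Graft Tregs had the highest mean of Id2 of all 11 subsets, 892 CPM, but tolerant CD4+GFP- T cells of the spleen were close, with 854 CPM. The libraries of these 2 subsets overlapped, and every tolerant CD4+ library (800 to 955 CPM) was above the lowest graft library. The 3 graft libraries held 1108, 1181 and 388 CPM, against 143, 160 and 200 CPM in SP/naive Tregs. Every graft library was above every SP/naive library, but the graft libraries were spread widely, with a mean of 892 ± 438 CPM (SD, n = 3) against 168 ± 29.4 CPM. Id2 rose by 2.41 ± 0.45 on the log2 scale (adjusted p = 0.000533, edgeR), the only DEG of the 8 factors in a comparison in which 0.13% of all genes were DEGs. The study named Id2 from these libraries, so this change is not independent evidence. With the likelihood ratio test, which the study used, the adjusted p was 0.0813 in edgeR. Leaving out single libraries of the 2 groups gave adjusted p-values up to 0.0146.

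Splenic Tregs of tolerant mice lay between them. SP/CD127-/lo Tregs had 297, 226 and 218 CPM of Id2 and SP/CD127hi Tregs 620, 329 and 264 CPM. Each of these libraries was above all 3 SP/naive libraries. Id2 rose in graft over SP/CD127-/lo Tregs by 1.85 ± 0.44 (adjusted p = 0.0477 in edgeR, beside 0.0829% of all genes), a call that was lost without any 1 of 5 of their 6 libraries (adjusted p = 0.102, 0.281 and 0.333 without SP/CD127-/lo replicates 1, 2 and 3, and 0.256 and 0.216 without graft replicates 1 and 2) and without DLN/CD127-/lo replicate 2 (0.0793) or DLN/CD127hi replicate 1 (0.0724). It was also lost with the likelihood ratio test (0.231), a stricter filter, 10 counts or more in 3 or more libraries (0.401), and a model of the compared libraries alone (0.225). Against SP/CD127hi Tregs the difference of graft Tregs was 1.14 ± 0.43 (adjusted p = 0.303), and that of SP/CD127hi over SP/naive Tregs was 1.27 ± 0.44 (adjusted p = 0.628), neither a DEG in edgeR. None of the 8 factors was a DEG between graft and SP/CD127hi Tregs, where 0.103% of all genes were, between SP/CD127hi and SP/naive Tregs (0.0197%) or between SP/CD127-/lo and SP/naive Tregs (0.071%). At an unadjusted p under 0.05 these comparisons held 1, 1 and 0 factors. Kidney epithelial markers, mostly Kap, moved with the graft: the 9 genes summed to 26.8 to 931 CPM in graft Tregs and to 8.46 to 37.4 CPM in SP/naive Tregs. Kap, a gene of the proximal tubule, averaged 338 CPM in graft and 0 CPM in SP/naive Tregs and Epcam 45.2 and 17.7 CPM, while the other 7, all detected in the graft, averaged 0.0993 to 1.04 CPM there. Their part in the Id2 difference was not tested. Graft replicate 3, which had the lowest Id2 of the 3 graft libraries, also had the lowest kidney sum (26.8 CPM, against 205 and 931 CPM in replicates 1 and 2), within the range of SP/naive Tregs. It had the highest sum of 10 macrophage markers, 475 CPM against 65.8 and 0 CPM, with 5 of the 10, Adgre1, Csf1r, C1qa, Mrc1 and Fcgr1, at 0 in all graft libraries. Over the graft libraries Lyz2 averaged 164 CPM and C1qb 14.2 CPM, and no other of the 10 more than 0.894 CPM.

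In the DLN, Id2 was ordered in the same way by gate. The DLN/naive Tregs had 57.5, 62.4 and 183 CPM, DLN/CD127-/lo Tregs 73.6, 280 and 368 CPM, and DLN/CD127hi Tregs 500, 524 and 591 CPM. All DLN/CD127hi libraries were above all other DLN libraries, while DLN/CD127-/lo and DLN/naive Tregs overlapped. Id2 rose in DLN/CD127hi over DLN/naive Tregs by 2.41 ± 0.45 (adjusted p = 0.000200, edgeR), a comparison of male tolerant with female naive mice. In that comparison the median gene was itself higher by 0.40, and relative to it Id2 was higher by 2.02. Against DLN/CD127-/lo Tregs the difference was 1.16 ± 0.44 (adjusted p = 0.288, edgeR), with no factor among the DEGs there, which were 0.418% of all genes, and 3 factors at an unadjusted p under 0.05. Between DLN/CD127-/lo and DLN/naive Tregs, where the median gene was higher by 0.58 and 0.355% of all genes were DEGs, Id2 differed by 1.25 ± 0.44 (adjusted p = 0.268), and 3 factors had an unadjusted p under 0.05. It became a DEG there without DLN/naive replicate 3 (2.00, adjusted p = 0.0253) or DLN/CD127-/lo replicate 1 (1.72, adjusted p = 0.0336, both in edgeR). In a model of the compared libraries alone, the adjusted p of Id2 in DLN/CD127hi over DLN/naive Tregs was 0.148, and in a model of the MiSeq libraries alone 0.308. Markers of other cells moved with that gate. B cell markers (8 genes) summed to 274 to 587 CPM in DLN/CD127hi Tregs and 13.3 to 57.5 CPM in DLN/naive Tregs, and macrophage markers (10 genes) to 610 to 975 CPM and 2.80 to 429 CPM. The macrophage sums were mostly Lyz2, which averaged 669 and 242 CPM, while no other marker of that list averaged more than 26.4 and 11.3 CPM. Plasma cell markers (5 genes) summed to 161 to 1439.6 CPM and 2.84 to 261 CPM, with Jchain at a mean of 583 and 96.9 CPM. CD8 T and NK cell markers (6 genes) summed to 52.0 to 359 CPM and 17 to 70.1 CPM. All B cell and macrophage markers were detected in DLN/CD127hi Tregs, Tnfrsf17 and Prf1 of the other lists were at 0 there, and the part of these cells in the Id2 difference was not tested.

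Among CD4+GFP- T cells, Id2 had 581, 372 and 427 CPM in naive mice and 955, 800 and 808 CPM in tolerant mice. The groups did not overlap, but the difference of 0.89 ± 0.43 was not past the threshold (adjusted p = 0.692, edgeR). No factor was a DEG between these subsets, where 0.107% of all genes were and 1 factor had an unadjusted p under 0.05. Of the comparisons of splenic Tregs with these cells, 1 was past the threshold: in SP/CD127-/lo Tregs Id2 was lower than in tolerant CD4+ T cells, with a log2 difference of -1.79 ± 0.44 (adjusted p = 0.0274, edgeR), and no library of one group reached the other. That call was lost without any 1 of the 6 libraries compared, with adjusted p-values of 0.0610 to 0.241, with the likelihood ratio test (0.303) and with the stricter filter (0.137). Dendritic cell markers summed to 0.586 to 2.83 CPM in SP/CD127-/lo Tregs and 22.6 to 82.9 CPM in tolerant CD4+ T cells. CD8 T and NK cell markers summed to 24.4 to 48.3 CPM and 71.1 to 188 CPM. B cell markers went the other way, with 41.0 to 65.4 CPM and 4.56 to 31.9 CPM. The part of such cells in the Id2 difference was not tested. The difference of SP/naive Tregs from naive CD4+ T cells was -1.46 ± 0.44 (adjusted p = 0.181, and 0.0290 in the model of the compared libraries alone), with 0.264% of all genes and no factor among the DEGs, and 3 factors at an unadjusted p under 0.05. SP/CD127-/lo Tregs differed from naive CD4+ T cells by -0.90 ± 0.43 (adjusted p = 0.527), without overlap. SP/CD127hi Tregs overlapped naive CD4+ T cells, with means of 404 and 460 CPM and a difference of -0.19 ± 0.43 (adjusted p = 1), and differed from tolerant CD4+ T cells by -1.08 ± 0.43 (adjusted p = 0.396). Graft Tregs had 0.96 ± 0.43 more than naive CD4+ T cells (adjusted p = 0.387, all in edgeR), with overlapping libraries.

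Id3 (ENSMUSG00000007872; chr4:136143497-136145755, plus strand), the relative of Id2 that is high in resting T cells, ran the other way in group means but was in no comparison a DEG. SP/naive Tregs had 179, 220 and 413 CPM, SP/CD127-/lo Tregs had 355, 262 and 266 CPM, SP/CD127hi Tregs had 123, 132 and 197 CPM, and graft Tregs had 112, 158 and 83.7 CPM. Graft Tregs had the lowest mean of all 11 subsets, and their libraries were below every SP/naive and SP/CD127-/lo library. The log2 difference was -1.20 ± 0.55 from SP/naive Tregs (adjusted p = 0.513) and -1.32 ± 0.55 from SP/CD127-/lo Tregs (adjusted p = 0.421, both in edgeR). In DLN/naive Tregs it had 365, 121 and 519 CPM, in DLN/CD127-/lo Tregs 122, 138 and 424 CPM, and in DLN/CD127hi Tregs 124, 205 and 144 CPM, and these groups overlapped. Over the 11 group means of log2 CPM, Id2 and Id3 had Pearson's r = -0.72, and over the 33 libraries r = -0.25, which share depth and library within each point. The sign turned within groups, where the deviations of the 33 libraries from their group means had r = 0.55.

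The ratio of both Id genes within a library needs no scaling. Log2 of Id2 over Id3 counts was 3.30, 2.90 and 2.21 in graft Tregs and -0.33, -0.46 and -1.05 in SP/naive Tregs, so that Id2 exceeded Id3 in every graft library and Id3 exceeded Id2 in every SP/naive library. The means were 2.80 ± 0.55 and -0.61 ± 0.38 (SD, n = 3), a difference of 3.41 ± 0.39 (SE). By an exact 2-sided permutation test its p was 0.1, the smallest that 3 libraries against 3 can give. SP/CD127hi Tregs had 1.36 ± 0.96 and SP/CD127-/lo Tregs -0.25 ± 0.04, a difference of 1.61 ± 0.55 (exact p = 0.1). In the DLN the same gates had 1.80 ± 0.39 and 0.03 ± 0.89, a difference of 1.77 ± 0.56 (exact p = 0.1), and DLN/naive Tregs had -1.70 ± 0.87. The libraries of the groups did not overlap in any of these 3 comparisons. The Foxp3- subsets all had more Id2 than Id3, with group means of 1.34 to 2.08.

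**Figure D2:**
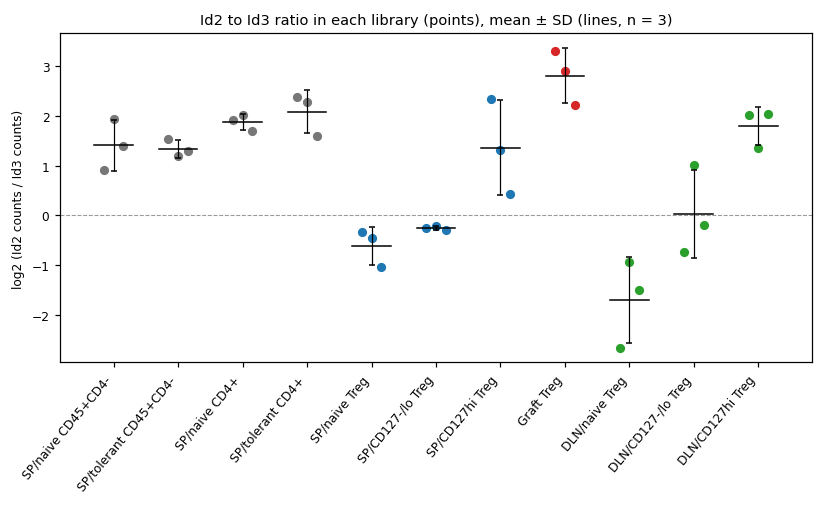
Log2 ratio of Id2 to Id3 counts (y axis) in each library (points) of 11 subsets (x axis), with means and SD over 3 libraries (lines); the dashed line marks equal counts. Graft Tregs sit between 2.21 and 3.30, above all SP/naive, SP/CD127-/lo and DLN/naive Tregs, which are below 0.

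Maf (ENSMUSG00000055435; chr8:115682942-115707794, minus strand) was the factor with the widest range of group means, with graft Tregs highest and CD45+CD4- cells of tolerant mice lowest. Graft Tregs had 914, 1259 and 1159.8 CPM, SP/CD127-/lo Tregs 697, 1072 and 930 CPM, SP/CD127hi Tregs 670, 836 and 1004 CPM, and SP/naive Tregs 553, 585 and 444 CPM. Naive CD4+ T cells had 372, 163 and 301 CPM and tolerant CD4+ T cells 182, 364 and 213 CPM. All 12 splenic and graft Treg libraries were above all 6 CD4+ T cell libraries. DLN/naive Tregs were not: their mean of 249 CPM was below the 279 and 253 CPM of naive and tolerant CD4+ T cells, and the libraries overlapped. Maf rose over naive CD4+ T cells in graft Tregs by 2.00 ± 0.44 (adjusted p = 0.00375, beside 0.619% of all genes) and in SP/CD127-/lo Tregs by 1.69 ± 0.43 (adjusted p = 0.0327, beside 0.469%). Over tolerant CD4+ T cells it rose in SP/CD127hi Tregs by 1.73 ± 0.43 (adjusted p = 0.0326, beside 0.324%) and in SP/CD127-/lo Tregs by 1.83 ± 0.44 (adjusted p = 0.0161, beside 0.284%, all in edgeR). SP/naive Tregs over naive CD4+ T cells had 0.92 ± 0.43 (adjusted p = 0.678, edgeR). SP/CD127hi Tregs over naive CD4+ T cells had 1.59 ± 0.43 (adjusted p = 0.0642, and 0.00717 to 0.0301 with the 5 alternatives that called it), with 0.422% of all genes and no factor among the DEGs, and 1 factor at an unadjusted p under 0.05. These comparisons share Treg or control libraries and are not independent. With the counts adjusted for the sequencer by ComBat-Seq, by the likelihood ratio test and with the stricter filter, none of the 4 calls of Maf held, and DESeq2 and separate models by sequencer kept 1, that of graft Tregs. Without naive CD4+ replicate 2, the adjusted p in graft Tregs was 0.0530 in edgeR, and the other 3 calls were lost without several libraries each, up to 0.335.

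Between Treg subsets, Maf changed in the DLN. DLN/naive Tregs had 117, 147 and 483 CPM, DLN/CD127-/lo Tregs 1035, 378 and 443 CPM, and DLN/CD127hi Tregs 721, 561 and 891 CPM. DLN/CD127hi libraries were all above DLN/naive libraries, of which replicate 3 stood far above the other 2. Maf rose by 1.54 ± 0.43 (adjusted p = 0.0482, edgeR), or 1.14 above the median gene, in male tolerant over female naive mice. Together with Id2, 2 of the 8 factors were DEGs in this comparison, beside 0.951% of all genes. B cell marker sums (274 to 587 CPM against 13.3 to 57.5 CPM) and macrophage marker sums (610 to 975 CPM against 2.80 to 429 CPM) were also higher in DLN/CD127hi Tregs. Their part in the Maf difference was not tested. The call of Maf was lost without DLN/naive replicate 1 (1.20, adjusted p = 0.310) or 2 (1.27, 0.222), DLN/CD127hi replicate 1 (1.54, 0.113) or 3 (1.30, 0.155) or DLN/CD127-/lo replicate 2 (1.59, 0.0562), by DESeq2 (adjusted p = 0.0613), with the likelihood ratio test (0.275), the stricter filter (0.151), the model of the compared libraries alone (0.601) and separate models by sequencer (0.581). Without DLN/naive replicate 3, Maf was also a DEG in DLN/CD127-/lo over DLN/naive Tregs (2.23, adjusted p = 0.00472, edgeR). Between graft and SP/naive Tregs the difference of Maf was 1.07 ± 0.43 (adjusted p = 0.380, edgeR), although no library of one group reached the other. It did not separate the CD127 gates, with -0.11 ± 0.42 in the spleen (adjusted p = 1) and 0.23 ± 0.42 in the DLN (adjusted p = 0.972). None of the 8 factors was a DEG between the CD127 gates of the spleen, where 0.0907% of all genes were and 1 factor had an unadjusted p under 0.05.

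CD45+CD4- cells, which hold B cells, myeloid cells and CD8 T cells, had the lowest Maf. In naive mice the libraries held 13.7, 126 and 46.0 CPM and in tolerant mice 3.59, 4.95 and 17 CPM. Maf fell by 2.87 ± 0.46 (adjusted p = 1.86e-05, edgeR), while the highest tolerant library was above the lowest naive library. It was the only factor among the DEGs, which were 0.0355% of all genes. The change was -1.81 (adjusted p = 0.0844) without naive replicate 2, and the adjusted p was 0.347 in a model of these libraries alone, 0.330 with the likelihood ratio test, 0.0707 with the stricter filter and 0.636 with ComBat-Seq. T cell markers (6 genes) summed to 1609 to 2573 CPM in naive and 812 to 1062 CPM in tolerant cells. Naive replicate 2, which had the highest Maf, had the lowest T cell sum of the naive libraries (1609 CPM). Treg markers (5 genes) went from 523 to 884 CPM to 437 to 541 CPM. Among these, Il7r averaged 537 CPM in naive and 393 CPM in tolerant cells, Ikzf2 168 and 69.7 CPM and Foxp3 2.46 and 0.501 CPM. CD8 T and NK cell markers (6 genes) summed to 860 to 1797 CPM in naive and 719 to 821 CPM in tolerant cells, B cell markers (8 genes) to 3513 to 5663 CPM and 5734 to 7575 CPM, and dendritic cell markers (6 genes) to 85.4 to 112 CPM and 150 to 208 CPM. T cell, CD8 T and NK cell, B cell and dendritic cell sums did not overlap between the groups. All of these markers were detected in both groups. Macrophage marker sums (10 genes) overlapped, with 97.8 to 482 CPM in naive and 362 to 965 CPM in tolerant cells. So did plasma cell marker sums (5 genes), with 183 to 1277 CPM and 263 to 2980 CPM. The part of these cells in the difference was not tested. The fall was larger than the change of Maf in CD4+ T cells between tolerant and naive mice in a test of both effects chosen after the values were seen, where Maf was 1 factor called beside 0.0473% of all genes. Naive CD4+ T cells were above naive CD45+CD4- cells by 2.17 ± 0.44 (adjusted p = 0.000459, edgeR), where Maf was 1 of 8 factors among the DEGs, beside 1.04% of all genes. Without naive CD45+CD4- replicate 1, that adjusted p was 0.0502, and with the likelihood ratio test 0.0884.

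**Figure D3:**
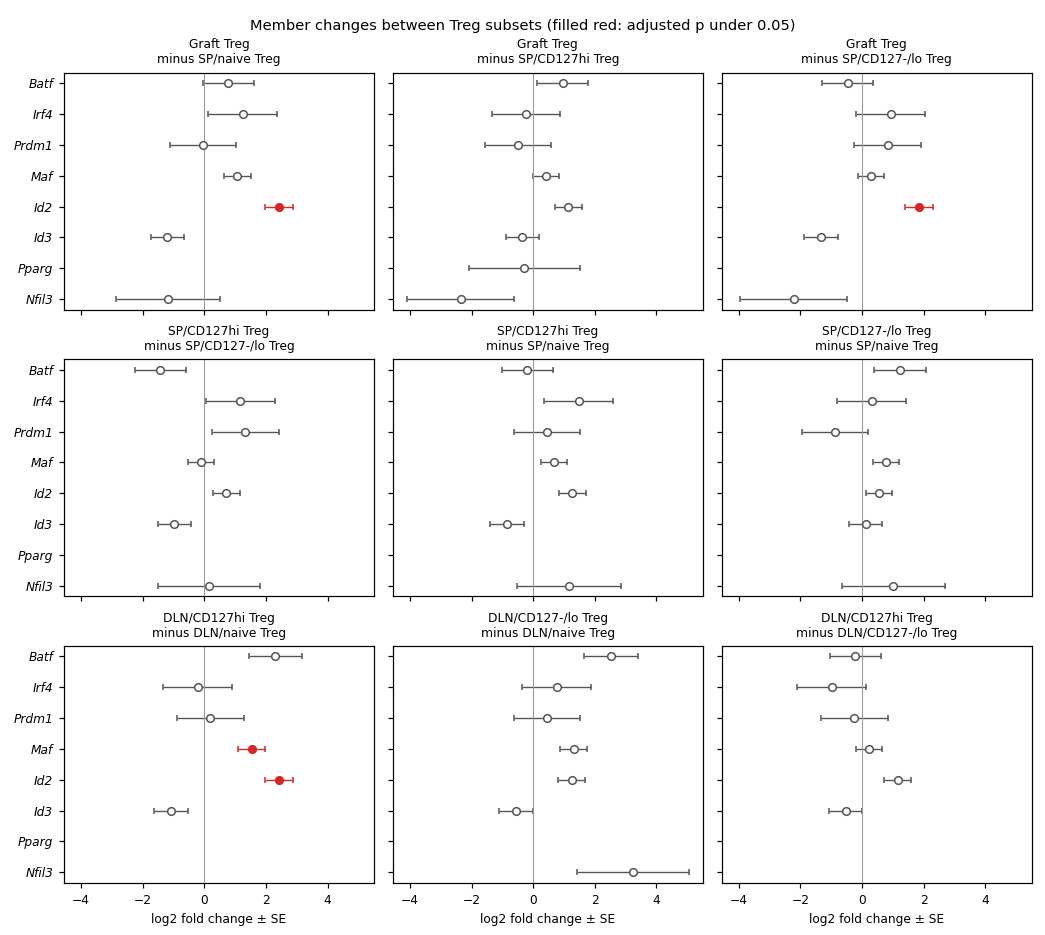
Log2 fold changes ± SE (x axis) of the factors (y axis) in the 9 comparisons between Treg subsets (panels), with DEGs in filled red. Only Id2 in 3 panels and Maf in 1 are filled; factors with a group at 3 or fewer counts in every library are left out of that panel.

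Batf (ENSMUSG00000034266; chr12:85686669-85709087, plus strand) had its highest mean in SP/CD127-/lo Tregs, whose libraries held 286, 118 and 149 CPM. SP/CD127hi Tregs had 85.8, 60.0 and 59.9 CPM, SP/naive Tregs 58.1, 49.1 and 127 CPM, and graft Tregs 87.5, 223 and 89.1 CPM. The CD127-/lo libraries of the spleen were all above the CD127hi libraries, but the difference of -1.43 ± 0.84 for CD127hi over CD127-/lo was not past the threshold (adjusted p = 0.778, edgeR). In the DLN the gates overlapped, with 117, 33.9 and 240 CPM in CD127-/lo, 109, 0 and 227 CPM in CD127hi and 29.1, 0 and 38.5 CPM in naive Tregs. A count of 0 in the DLN/CD127hi library beside 112 and 219 counts in the others shows how far libraries of 1 subset differed. Batf was in none of the 18 comparisons a DEG. It became one in DLN/CD127hi over DLN/naive Tregs without the library at 0, DLN/CD127hi replicate 2 (2.93, adjusted p = 0.0430, against 2.31 and 0.244 with it, in edgeR). In SP/CD127-/lo Tregs over naive CD4+ T cells, which had 21, 59.5 and 5.09 CPM, it was higher by 2.69 ± 0.88 (adjusted p = 0.227), and a DEG with 3 of the 11 alternatives, edgeR 4 defaults (adjusted p = 0.0119), the model of the compared libraries alone (0.0352) and separate models by sequencer (0.0429).

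Irf4 (ENSMUSG00000021356; chr13:30749226-30766976, plus strand), the partner of Batf, was highest in CD45+CD4- cells, with 50.4, 83.8 and 16.1 CPM in naive and 59.7, 62.9 and 137 CPM in tolerant mice. In graft Tregs it had 40.9, 61.7 and 0 CPM, in SP/CD127hi Tregs 32.1, 62.4 and 26.1 CPM, in SP/CD127-/lo Tregs 14.7, 6.79 and 32.2 CPM and in SP/naive Tregs 19.5, 5.41 and 18.2 CPM. SP/CD127hi libraries were all above SP/naive libraries, with a log2 difference of 1.48 ± 1.13 (adjusted p = 0.950, edgeR). No pair of neighbours in the order of its 11 group means was free of overlap.

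Prdm1 (ENSMUSG00000038151; chr10:44437177-44528501, minus strand) had 61.1, 19 and 165 CPM in SP/CD127hi Tregs, the highest mean, 66.1, 77.8 and 35.1 CPM in SP/naive Tregs, 33.6, 44.0 and 19.3 CPM in SP/CD127-/lo Tregs and 63.9, 88.4 and 20.6 CPM in graft Tregs. These Treg groups overlapped. The lowest mean was in tolerant CD4+ T cells, with 12.3, 14.5 and 7.47 CPM, below every library of splenic and graft Tregs. SP/CD127hi Tregs were higher than these cells by 2.83 ± 1.15 (adjusted p = 0.402 in edgeR, 0.0310 with edgeR 4 defaults and 0.0488 in the model of the compared libraries alone). In the DLN its libraries ran from 0 to 89.5 CPM within DLN/CD127hi Tregs.

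Nfil3 (ENSMUSG00000056749; chr13:52967209-52981073, minus strand) had its highest mean in DLN/CD127-/lo Tregs, but no difference of it was past the threshold. DLN/CD127-/lo Tregs had 58.9, 20.9 and 63.8 CPM, from 108, 21 and 78 counts, while DLN/CD127hi Tregs had 0, 1 and 2 counts and DLN/naive Tregs 1, 0 and 23 counts. Means were 47.9 CPM in DLN/CD127-/lo and 0.954 CPM in DLN/CD127hi Tregs, without overlap, and the unadjusted p of 0.00801 became 0.286 on adjustment in edgeR. Naive CD4+ T cells, next in the order of means, had 0, 0 and 106 counts, and the 41.5 CPM of their replicate 3 exceeded DLN/CD127-/lo replicate 2. In the spleen both gates had it alike in range, 20.2, 6.73 and 13 CPM in CD127hi and 9.61, 17.6 and 8.79 CPM in CD127-/lo Tregs, and in graft Tregs 2 of the 3 libraries had 0 counts. In the test of the difference between the gate's effect in DLN and in spleen, none of the 8 factors was a DEG, where 0.118% of all genes were. There 1 factor had an unadjusted p under 0.05, Nfil3 (adjusted p = 0.564, edgeR), whose DLN/CD127hi libraries were all at 3 or fewer counts.

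Pparg (ENSMUSG00000000440; chr6:115360951-115490399, plus strand) was near or below the limit. It had 0 counts in 21 of the 33 libraries and at most 3 counts in 28, and its highest count was 20. Its 5 libraries above 3 counts were graft replicate 2 (20 counts), SP/CD127hi replicates 2 and 3 (11 and 13 counts), DLN/CD127hi replicate 2 (12 counts) and tolerant CD4+ replicate 2 (4 counts). In both CD127-/lo groups all 6 libraries were at 0. The libraries of SP/CD127hi Tregs with reads had 3.37 and 3.76 CPM. The mean of all 3 SP/CD127hi libraries, 2.38 CPM, was 2.87-fold the mean limit of 3 counts in SP/CD127-/lo Tregs. That limit covers counting error only, not the spread between libraries. Pparg was the factor with an unadjusted p under 0.05 between the gates of the spleen (0.00980, adjusted p = 0.494, edgeR). However, SP/CD127hi replicate 1 was at 0 too, and no difference of Pparg was past the threshold. Overlapping antisense genes had 2 reads (Pparg) and 0 reads (Maf) over all libraries, although the counting did not use strand.

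Replicates set the scale of these differences. The pooled SD within groups was 0.63 for Id2, 0.77 for Maf and 0.57 for Id3 on the log2 CPM scale, and 1.90 for Batf, 1.93 for Irf4, 1.47 for Prdm1 and 1.81 for Nfil3. The SD of the group means exceeded the spread within groups for Maf (2.18) and Id2 (0.99) but not for the other 6 factors. Genes of a like mean level, within 0.5 log2 units, had a median SD within groups of 1.19 at the level of Batf, 1.46 at that of Irf4 and 0.48 at that of Id2.

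**Figure D4:**
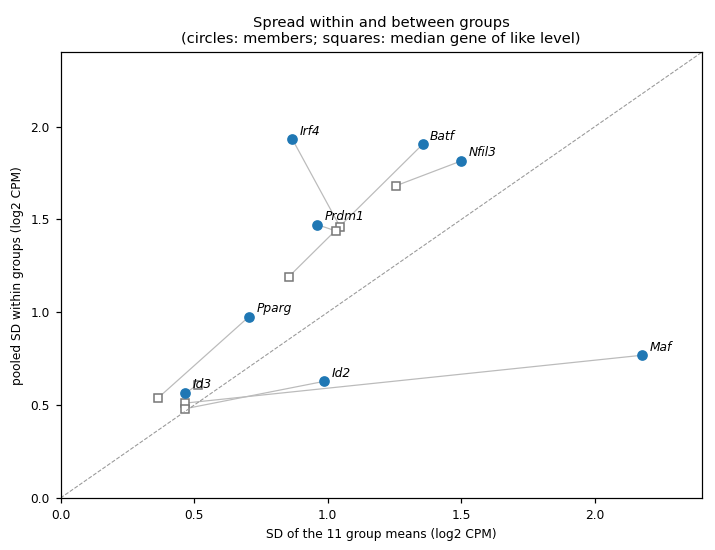
SD of the 11 group means (x axis) and pooled SD within groups (y axis) of log2 CPM for the 8 factors (circles), joined to the median gene of like mean level (squares); the dashed line marks equality. Maf and Id2 are the factors below that line.

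Genes related to the 8 factors were counted as lists. Of 25 partners and relatives, such as the JUN proteins, the E proteins Tcf3, Tcf4 and Tcf12 and the PPAR partners, none was a DEG in the 9 comparisons between Treg subsets, and their median difference between graft and SP/naive Tregs was 0, as over all genes. Of 16 other factors of tissue Tregs, 1 rose in graft over SP/naive Tregs (beside 0.13% of all genes) and over SP/CD127hi Tregs (0.103%): Ikzf2, which encodes Helios, with 9652 ± 4320 CPM in graft and 4574 ± 1138 CPM in SP/naive Tregs (log2 fold change 1.08, adjusted p = 0.00353 in edgeR, 0.609 with the likelihood ratio test, and up to 0.328 without 1 library). Over naive CD4+ T cells, 3 of the 16 rose in graft Tregs (Ikzf2, Ahr and Ikzf4), the same 3 in SP/CD127hi Tregs, Ikzf2 and Ahr in SP/CD127-/lo Tregs and Ikzf2 in SP/naive Tregs, beside 0.619%, 0.422%, 0.469% and 0.264% of all genes in these comparisons, which share the CD4+ T cells. Of 10 quiescence factors, none was a DEG between Treg subsets, although all 10 had a negative difference between graft and SP/naive Tregs, with a median of -0.60. Against naive CD4+ T cells 3 of the 10 fell in graft Tregs (beside 0.619% of all genes), Satb1 by 2.56, Lef1 by 2.89 and Bach2, which restrains the effector program, by 2.34 on the log2 scale. Satb1 and Lef1 also fell in SP/naive, SP/CD127hi and SP/CD127-/lo Tregs, and Foxp1 in SP/CD127-/lo Tregs.

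Of 31 effector Treg genes, 11 rose in graft Tregs over naive CD4+ T cells (beside 0.619% of all genes), with a median difference of 3.07 beside -0.22 over all genes. In other Tregs, 9 rose in SP/naive (median 2.52, beside 0.264% of all genes) and 9 in SP/CD127hi Tregs (2.37, beside 0.422%). In SP/CD127-/lo Tregs 11 rose (3.05, beside 0.469%) and 1, Cxcr6, fell. These comparisons share the CD4+ T cells, and a difference between them was not tested. Those that rose in graft Tregs included Il2ra (275 CPM in graft Tregs, 0.674 CPM in CD4+ T cells), Fgl2 (310 CPM and 0.109 CPM), Penk (88.7 CPM and 0 CPM) and Tnfrsf4 (1434 CPM and 170 CPM). Between Treg subsets, the chemokine receptor gene Cxcr6 was the only one of the 31 that changed, in 5 of the 9 comparisons, in which 0.071% to 0.951% of all genes were DEGs. It was at 0 in all libraries of SP/CD127-/lo and DLN/naive Tregs and averaged 20.6 CPM in SP/naive, 54.9 CPM in graft, 9.03 CPM in SP/CD127hi, 29.8 CPM in DLN/CD127-/lo and 46.6 CPM in DLN/CD127hi Tregs. Set against the mean limit of 3 counts in SP/CD127-/lo Tregs, the mean was 66.4-fold in graft Tregs (adjusted p = 2.35e-05 for the comparison, edgeR). In SP/naive Tregs it was 25.0-fold that limit (adjusted p = 0.000412, edgeR). In DLN/CD127-/lo Tregs the mean was 14.7-fold the limit in DLN/naive Tregs (adjusted p = 0.00146, edgeR). These limits cover counting error only, not the spread between libraries. The calls of Cxcr6 in SP/CD127hi over SP/CD127-/lo and in DLN/CD127hi over DLN/naive Tregs were lost without 1 library, with adjusted p up to 0.507 and 0.358. Of 12 genes of the PPARG program, Scd1, a fatty acid desaturase, rose in DLN/CD127hi Tregs over both other DLN groups, from 0.234 ± 0.405 CPM in DLN/naive and 0 CPM in DLN/CD127-/lo Tregs to 27.2 ± 27.2 CPM (adjusted p = 1.98e-05 and 4.01e-06, edgeR, beside 0.951% and 0.418% of all genes). Both calls held without any 1 of the libraries compared (adjusted p up to 0.000740 and 0.00127). B cell marker sums were also higher in DLN/CD127hi Tregs (274 to 587 CPM) than in DLN/naive (13.3 to 57.5 CPM) and DLN/CD127-/lo Tregs (81.2 to 265 CPM), and their part in the Scd1 difference was not tested. CD45+CD4- cells had 417 and 754 CPM of Scd1 in naive and tolerant mice. None of 9 circadian genes was a DEG between Treg subsets.

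Similarity of pattern was taken as Pearson's r of the 11 group means of log2 CPM, among 11269 genes with at least 10 CPM in 1 group. The genes most like Maf were Icos, a costimulatory receptor of effector Tregs (r = 0.98, and 0.89 over 33 libraries), Nav2 (0.97 and 0.83) and Iigp1 (0.96 and 0.84). Those of Id2 were Wbp2 (0.92 and 0.42), A930001M01Rik (0.91 and 0.49) and Tex261 (0.91 and 0.46), and those of Id3 were Plagl1 (0.94 and 0.33), Ncl (0.90 and 0.62) and Tacc2 (0.88 and 0.28). Batf was most like Atmin (0.94 and 0.37), Isg20 (0.93 and 0.23) and Pkp3 (0.92 and 0.45), and Irf4 like Fosb (0.92 and 0.34), Cd36 (0.91 and 0.30) and Gm35853 (0.90 and 0.17). For Prdm1 they were Mbnl1 (0.88 and 0.63), Gprasp2 (0.86 and 0.47) and Cdc42se2 (0.86 and 0.69), and for Nfil3 Cabcoco1 (0.92 and 0.30), Ryk (0.85 and 0.26) and Bcor (0.84 and 0.45). The values over libraries were highest for Maf, and all points share depth and sequencer within tissues.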

How the data were processed

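Sorted cells were amplified with SMART-Seq v4 and sequenced as paired ends. Per the labels and methods, the authors used FastQC, Trim Galore, STAR with mm10 and EGFP, and HTSeq for counting, although the files have STAR's layout, and deposited raw counts per gene for each library, not normalized. Versions are not given in the sources used here. The column over both strands was used, and the rows of reads not assigned to a gene were left out. Of uniquely mapped read pairs, 16.6% to 49.9% on NextSeq and 29.9% to 60.4% on MiSeq lay outside annotated exons, which includes introns. Names, positions and exonic lengths came from GENCODE vM21 (GRCm38), with no symbol for 43 features. Groups and replicate numbers were read from the sample titles.

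The 25347 genes that reached 1 CPM in any library were kept. TMM factors, 1 mean per group and the quasi-likelihood test of edgeR 4.0.16 (R 4.3.3), in its legacy form, with Benjamini-Hochberg adjustment were used for 18 comparisons and 2 interactions, one of which was chosen after values were seen. Log2 CPM had a prior count of 2. The Id2 to Id3 ratio used counts + 0.5 and an exact permutation test. The likelihood ratio test, the edgeR 4 defaults, DESeq2 1.42.0, RLE and unscaled totals, other filters, models of fewer libraries, ComBat-Seq (sva 3.50.0), a replicate block and leaving out each library were the alternatives. Python 3.11.15 with pandas 2.3.3, scipy 1.17.1 and matplotlib 3.10.9 made tables and figures. All 8 factors were named in every comparison; for the lists, genes that changed between Treg subsets were named, and up to 4 DEGs with the smallest adjusted p elsewhere. The members and lists were chosen with earlier results of these data known. The tests were tested on simulated counts.

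Replicates differed beyond sampling noise, with a chi-square of at least 26.0 per gene in all 33 pairs, and log2 CPM correlated at 0.71 to 0.95 within groups. In 0 of 18 comparisons did all same-numbered libraries deviate together (r over 0.1), so the numbers were not taken to pair samples.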

Additional observations from a re-analysis of the deposited data

Results flagged for a closer look

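The difference of Maf between tolerant and naive mice was not the same in both cell classes in a test chosen after the values had been seen, and the call was lost with 7 of 11 alternatives. In the comparison of tolerant with naive mice, Maf was lower in CD45+CD4- cells, while CD4+ T cells of tolerant mice had 253 ± 97.2 CPM and those of naive mice 279 ± 106 CPM (SD, n = 3), a log2 difference of -0.14 ± 0.42 (adjusted p = 1, edgeR). The interaction of both effects was -2.73 ± 0.62 (adjusted p = 0.0315, edgeR), and 12 of 25347 genes (0.0473%) were DEGs of it. The call was also lost without naive CD45+CD4- replicate 2 (-1.68, adjusted p = 0.613), tolerant CD45+CD4- replicate 1 (0.157) or 2 (0.0845), naive CD4+ replicate 2 (0.0741), tolerant CD4+ replicate 2 (0.137), DLN/CD127-/lo replicate 2 (0.104) or DLN/CD127hi replicate 1 (0.0947). T cell markers (1609 to 2573 CPM in naive and 812 to 1062 CPM in tolerant CD45+CD4- cells), B cell markers (3513 to 5663 and 5734 to 7575 CPM) and dendritic cell markers (85.4 to 112 and 150 to 208 CPM) did not overlap between these groups. Macrophage and plasma cell marker sums did overlap. Naive replicate 2, with the highest Maf, had the lowest T cell sum of the naive libraries. The part of these cells was not tested.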

How the results depend on the processing

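All 12 calls of factors kept their direction under the 11 alternatives that left no library out. Between Treg subsets 4 calls were made, which became 1 with the likelihood ratio test, 2 with at least 10 counts in at least 3 libraries, 3 with DESeq2, 1 with only the libraries compared and 2 with separate models by sequencer; leaving out 1 library gave 2 to 6. For Tregs against CD4+ T cells there were 5 calls, and 0 with the likelihood ratio test, 8 with edgeR 4 defaults, 0 with the stricter filter, 2 with DESeq2, 1 with ComBat-Seq, 9 with only the libraries compared and 3 with separate models, and 2 to 6 without 1 library. Between Foxp3- subsets there were 2 calls, and 0 with the likelihood ratio test, 1 each with the stricter filter, ComBat-Seq and only the libraries compared, and 1 to 2 without 1 library. The interaction of gate and tissue had 0 calls under every alternative run. The interaction of tolerance and cell class had 1 call, and 0 with the likelihood ratio test, edgeR 4 defaults, the stricter filter, DESeq2, ComBat-Seq, only the libraries compared and separate models, and 0 to 1 without 1 library. For all of these the cause was not tested. The replicate block kept all 12 calls and added 1, Maf in SP/CD127hi over naive CD4+ T cells (adjusted p = 0.0301, edgeR), as did total counts without TMM (0.0175) and no filter (0.0279); the numbers are not shown to pair samples. The Id2 to Id3 differences kept their sign, at 3.17 to 3.71, 1.13 to 2.08 and 1.39 to 2.26 without 1 library. Of 176 group means under another scaling, 2 moved by more than 1 SD, both Id2 in DLN/CD127hi Tregs (588 CPM by totals and 642 CPM with RLE factors). Depth was least for Pparg, at most 3 counts in 28 libraries, and the limit of a count of 0 was highest in the DLN, up to 3.11 CPM.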
